A study of Mus musculus with 9 samples.

Results

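Prdm9, Zcwpw1, Spo11, Mei1, Mei4, Rec114, Iho1 and Ankrd31 are 8 mouse genes linked to the DNA double-strand breaks that start meiotic recombination. Their products place, make or control these breaks or, in the case of Zcwpw1, read the marks of break sites. The genes were chosen by name for these roles. All 8 had a row among the 21877 NCBI genes of the deposited tables, which hold 50493 features in all. RNA came from wild-type mouse testis in 9 libraries of 3 germ cell types: spermatocytes at pachytene (PAC), and the round (RS) and elongating (ES) spermatids that follow them, with 3 libraries each that the design text calls biological replicates. Ribosomal RNA was removed from total RNA and the libraries kept strand information. No source used here gives the age, strain, method of cell isolation or number of animals, so p-values measure the spread between these libraries.

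In mammals PRDM9, a histone methyltransferase with a DNA-binding zinc finger array, marks the hotspots where breaks will be made, and ZCWPW1 reads those marks. SPO11, a relative of archaeal topoisomerases, cuts the DNA together with its partner TOPOVIBL, at the start of meiotic prophase and thus before the pachytene stage. REC114, MEI4, IHO1 and ANKRD31 form assemblies on the chromosome axis that SPO11 depends on, and MEI1 is a further protein that break formation needs. Round and elongating spermatids have finished meiosis.

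The 8 genes lie on 6 autosomes of GRCm38.p6. Mei4 (81863670 to 82206007), Rec114 (58652856 to 58822706) and Iho1 (108403492 to 108431841) are on chromosome 9. Prdm9 is on chromosome 17 (15543072 to 15564374), Zcwpw1 on chromosome 5 (137787157 to 137822621) and Spo11 on chromosome 2 (172977379 to 172993576). Mei1 is on chromosome 15 (82070074 to 82126817) and Ankrd31 on chromosome 13 (96748289 to 96909794). Each value below is a sum over a gene's transcripts, so the isoforms of Spo11, of which GENCODE M21 lists 3 coding ones, were not told apart. No RefSeq non-coding transcript row of the tables belonged to any of the 8 genes.

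RefSeq promoter windows, from 250 bases before a transcript start to 50 after it, were held in the reference for 7 of the 8 genes, 9 windows in all. Spo11 has no entry. Of these, 3 are shown for members that behave differently in the results: Prdm9, scarce in every library, Iho1, which fell after pachytene, and Rec114, which rose. Each is written on the strand of its gene, with capitals for matches, on either strand, to any of 5 motifs: CACGTG (E-box), GGCGGGAA (E2F), CNCCTCAG (STRA8), GGCAGTT (A-MYB) and TGACGTCA (cyclic AMP response element).
Prdm9, chr17:15564305-15564604, minus strand: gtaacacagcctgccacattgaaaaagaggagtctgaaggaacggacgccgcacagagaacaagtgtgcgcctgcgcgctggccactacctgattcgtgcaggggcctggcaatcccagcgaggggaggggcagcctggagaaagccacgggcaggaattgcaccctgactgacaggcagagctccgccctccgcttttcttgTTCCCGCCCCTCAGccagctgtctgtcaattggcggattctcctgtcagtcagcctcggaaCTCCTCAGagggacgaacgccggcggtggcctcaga
Iho1, chr9:108431777-108432076, minus strand: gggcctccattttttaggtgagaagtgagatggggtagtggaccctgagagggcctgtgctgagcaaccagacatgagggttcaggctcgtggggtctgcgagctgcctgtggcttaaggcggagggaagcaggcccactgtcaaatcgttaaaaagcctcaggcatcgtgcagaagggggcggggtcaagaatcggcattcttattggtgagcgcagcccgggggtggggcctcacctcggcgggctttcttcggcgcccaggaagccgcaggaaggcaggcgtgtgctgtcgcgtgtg
Rec114, chr9:58741510-58741809, minus strand: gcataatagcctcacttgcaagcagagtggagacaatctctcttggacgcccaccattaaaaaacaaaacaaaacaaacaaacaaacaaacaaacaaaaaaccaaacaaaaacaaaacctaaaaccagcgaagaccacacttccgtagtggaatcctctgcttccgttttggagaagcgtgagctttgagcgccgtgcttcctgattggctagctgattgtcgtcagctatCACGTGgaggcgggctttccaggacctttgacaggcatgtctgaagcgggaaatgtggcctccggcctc
Positions are counted from 0 at the first transcribed base. The Prdm9 window held CTCCTCAG at 14, and upstream the E2F match TTCCCGCC at -47, which overlaps CCCCTCAG at -41. STRA8, whose binding letters these resemble, is the transcription factor of meiotic entry. The Rec114 window, which lies at a start inside the annotated span of the gene and not at its outer end, held CACGTG at -19. The other 7 windows, that of Iho1 and the second of Prdm9 among them, held none of the 5 motifs. Among them, the window of Mei1 (82082226 to 82082525) lies inside its gene too, as does the second of Prdm9. The outer starts of Mei1 and Rec114 were thus not searched. Of all 32851 windows of 300 bases, 7.15% held CACGTG, 2.19% the E2F letters, 7.94% the STRA8 letters, 4.12% the A-MYB letters and 1.79% the cyclic AMP response element. These matches are descriptions of the letters only.

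Library totals ran from 22910156 to 33801617 counts, and levels of one gene across cell types are given as CPM, the counts scaled to library size after TMM scaling. Marker lists followed the labels in part. In RS against PAC 9 of 12 pachytene genes were lower, beside 34.2% of all features, and in ES against PAC 12 of 12, beside 33.7%. In RS 11 of 12 round and 12 of 12 elongating spermatid genes were higher than in PAC, beside 38.2%. All 12 elongating spermatid genes were higher again in ES than in RS, beside 24.5%. The pachytene list was split in ES against RS, with 4 genes lower and 4 higher, beside 22.1% and 24.5%. There 9 of 12 round spermatid genes were lower and 1 higher. Their summed level was 3604 to 3918 CPM in RS and 3755 to 4663 in ES. Scaling factors were between 1.032 and 1.099 in PAC and RS, 0.924 and 0.923 in ES replicates 2 and 3, and 0.758 in ES replicate 1, which stood apart. All 3 comparisons share libraries pairwise, so their values are set side by side only.

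The 8 genes covered a wide range of levels per length. In the authors' FPKM, Spo11 was the most abundant member in PAC at 120.2, 104.5 and 90.0, with a mean of 105 ± 15.1 (SD, n = 3). Ankrd31 followed at 17.0 ± 3.99, Iho1 at 12.2 ± 0.271 and Zcwpw1 at 4.54 ± 0.432. The ranges of these members did not overlap with those of their neighbours in the order. Rec114 (1.96 ± 0.215) and Mei1 (1.78 ± 0.264) overlapped each other, as did Prdm9 (0.201 ± 0.111) and Mei4 (0.0603 ± 0.0556) at the bottom. Spo11 alone thus made up 73.2% ± 4.91 of the summed FPKM of the 8 genes in PAC, 69.3% ± 0.607 in RS and 53.9% ± 1.73 in ES. Ankrd31 took 12.1% ± 3.76, 14.1% ± 0.465 and 26.0% ± 0.199.

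The order changed below the first place. In RS, Rec114 at 4.995 ± 0.412 FPKM stood above Iho1 at 3.86 ± 0.109, and Mei1 at 1.68 ± 0.173 stood above Zcwpw1 at 0.973 ± 0.182, with ranges that did not overlap. In ES, Iho1 (3.15 ± 0.835) and Rec114 (3.096 ± 0.584) overlapped, as did Zcwpw1 (1.73 ± 0.386) and Mei1 (1.27 ± 0.314). Spo11 and Ankrd31 were first and second in each cell type, and Prdm9 and Mei4 were last.

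**Figure D1:**
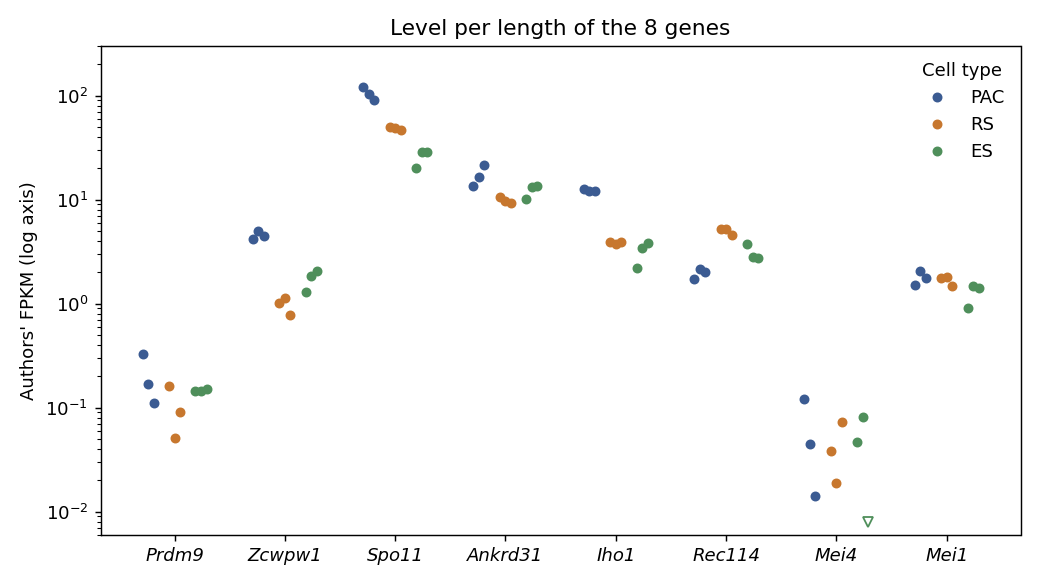
Authors' FPKM of the 8 genes on a log axis, 1 point per library, coloured by cell type; the open triangle at the bottom marks a library listed at 0 (Mei4, ES replicate 3). Spo11 lies highest in all 9 libraries and Prdm9 and Mei4 lie lowest.

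RS against PAC spans the meiotic divisions. Zcwpw1, Iho1, Spo11 and Ankrd31 fell and Rec114 rose, while Prdm9 and Mei1 did not pass the test and Mei4 had too few counts for it. Of the 7 members tested, 4 were lower in RS, where 34.2% of all 26030 tested features were lower, and 1 was higher, where 38.2% were (72.5% in either direction). The same 5 members had libraries that did not overlap, beside 37% of features with RS below PAC and 42.1% with RS above it (79.1% in all). The members' median log2 fold change was -1.05, against 0.11 over all features. In ES against RS, Zcwpw1 and Ankrd31 rose and Spo11 fell further: 1 of 7 members was lower, beside 22.1% of all features, and 2 were higher, beside 24.5% (46.6% in either direction). Those 3 had libraries that did not overlap, beside 29.3% of features lower in this way and 30.2% higher (59.4% in all). Over all features 52.6% of the calls were higher, but 34.4% with total counts alone and 61.0% with DESeq2 size factors. In ES against PAC, Zcwpw1, Spo11 and Iho1 were lower, beside 33.7% of all features, and Rec114 was higher, beside 30.6% (64.4% in either direction). The libraries of these 4 did not overlap, beside 35.5% of features lower in this way and 32% higher (67.5% in all). Here 47.6% of all calls were higher, and 57.9% with upper-quartile factors. In a bulk library, fewer cells with a message and less of it per cell cannot be told apart.

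**Figure D2:**
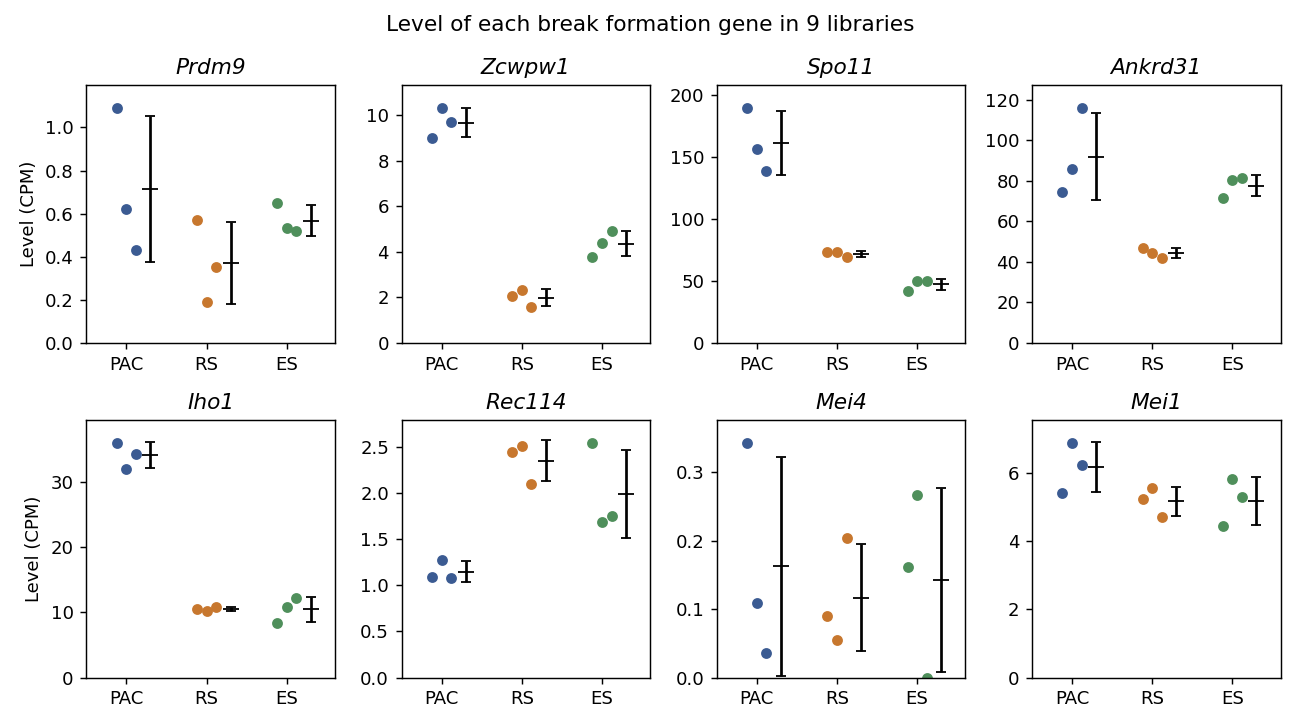
CPM after TMM scaling for each of the 8 genes, with 1 point per library and the mean ± SD of 3 libraries beside the points; each panel has its own axis from 0. Zcwpw1, Spo11 and Iho1 are highest in PAC and Rec114 is lowest there; Ankrd31 is lowest in RS, with PAC and ES overlapping, and the points of Prdm9, Mei4 and Mei1 overlap between cell types.

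Of the hotspot genes, Prdm9 was barely detected. Its counts were 35, 17 and 12 in PAC, 19, 7 and 12 in RS, and 12, 12 and 11 in ES. Values overlapped between cell types, and only PAC replicate 1 exceeded 1 CPM (1.09). Summed over libraries the level was 0.733 CPM in PAC (exact 95% Poisson interval 0.565 to 0.937, counting error only), 0.365 in RS (0.258 to 0.501) and 0.563 in ES (0.392 to 0.783). The log2 fold change of RS against PAC was -0.95 (95% interval -2.06 to 0.16, adjusted p = 0.11, from the quasi-likelihood test of edgeR after Benjamini-Hochberg adjustment, as for every adjusted p here unless another tool is named). The interval includes both no change and a fall of more than the size seen for Spo11, so a change of that size is not excluded.

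Zcwpw1, the reader of the PRDM9 marks, was well above Prdm9 and changed at each step. Its levels were 9.02, 10.3 and 9.69 CPM in PAC, 2.05, 2.32 and 1.58 in RS, and 3.78, 4.40 and 4.92 in ES. All 3 cell types were separate: PAC was high, RS low and ES between them. RS was 4.87-fold lower than PAC (log2 fold change -2.28, SE 0.21, adjusted p = 3.33e-06). ES was 2.20-fold above RS (log2 fold change 1.14, SE 0.21, adjusted p = 0.00106) and 2.21-fold below PAC (adjusted p = 0.000405). In FPKM, with a pseudocount of 1, the rise in ES was 0.46 on the log2(FPKM + 1) scale (adjusted p = 0.0282, limma), and the fall in RS was -1.49. With a pseudocount of 0.1 they were 0.76 and -2.12.

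Spo11, the gene of the break-making enzyme itself, had 6082, 4270 and 3853 counts in PAC, the highest of the 8 genes. Its levels were 189, 156 and 139 CPM in PAC, 72.9, 72.9 and 69.0 in RS, and 42.3, 49.6 and 49.8 in ES. All 3 cell types were separate and stood in the order of development. The log2 fold change was -1.17 for RS against PAC (SE 0.14, adjusted p = 2.52e-05) and -0.60 for ES against RS (SE 0.14, adjusted p = 0.00489), and -1.77 for ES against PAC (adjusted p = 1.72e-06). The fall from RS to ES was -0.92 with total counts alone and -0.94 in FPKM with a pseudocount of 0.1. Both steps were past the threshold under all 20 alternative settings.

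Top6bl, listed as Gm960 in the tables' build, encodes TOPOVIBL, the partner of SPO11. Its CPM was far below that of Spo11, without allowance for transcript length. It was lower in RS, at 1.71 ± 0.569 CPM against 3.69 ± 0.0452 (SD, n = 3; log2 fold change -1.11, adjusted p = 0.00469). It was lower in ES than in PAC too (log2 fold change -0.89, adjusted p = 0.0185), a call lost without ES replicate 2 (-0.74, adjusted p = 0.0741), with upper-quartile factors (-0.58) and in a fit of PAC and ES alone (-0.68). Over its 20 alternatives that adjusted p ran from 0.00223 to 0.112.

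Ankrd31 encodes a REC114-binding protein needed for breaks in the pseudoautosomal region. Its levels were 74.6, 85.6 and 116 CPM in PAC, 46.8, 44.2 and 42.1 in RS, and 71.5, 80.2 and 81.2 in ES. RS was low, and PAC and ES overlapped. The fall in RS was 2.07-fold (log2 fold change -1.05, SE 0.16, adjusted p = 0.000156). The rise from RS to ES was 1.75-fold (log2 fold change 0.81, SE 0.16, adjusted p = 0.00191), but it did not pass with total counts alone (0.49, adjusted p = 0.0553) or in FPKM (0.31 with a pseudocount of 0.1 and 0.29 with 1, adjusted p = 0.213 and 0.211). ES against PAC had a log2 fold change of -0.24 (95% interval -0.60 to 0.11, adjusted p = 0.206). That difference was past the threshold without PAC replicate 1 (-0.40, adjusted p = 0.0422) and with total counts alone (-0.53), and was 0.07 with upper-quartile factors.

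Iho1, whose product binds HORMAD1 on the chromosome axis, stepped down once. It was at 36.0, 32.0 and 34.3 CPM in PAC, 10.6, 10.2 and 10.9 in RS, and 8.38, 10.9 and 12.2 in ES. All spermatid libraries lay below all PAC libraries, and RS and ES overlapped. RS was 3.23-fold lower than PAC (log2 fold change -1.69, SE 0.16, adjusted p = 4.33e-06) and ES 3.25-fold lower (adjusted p = 4.88e-06). Between ES and RS the log2 fold change was -0.01 (95% interval -0.36 to 0.34, adjusted p = 0.96).

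Rec114 was the one member higher in spermatids. Its counts were 35, 35 and 30 in PAC, 81, 92 and 72 in RS, and 47, 38 and 37 in ES, or 1.09, 1.28 and 1.08 CPM, then 2.44, 2.51 and 2.10, then 2.54, 1.69 and 1.75. Every PAC library lay below every spermatid library, while RS and ES overlapped. RS was 2.04-fold above PAC (log2 fold change 1.03, SE 0.26, adjusted p = 0.00429), past the threshold under all 20 alternatives. For ES against PAC it was 0.79 (adjusted p = 0.023), a call lost without ES replicate 1 (0.58, adjusted p = 0.0842), PAC replicate 1 (0.72) or PAC replicate 3 (0.73), with total counts alone (0.48) and with no filter (0.76). Over the alternatives that adjusted p ran from 0.00475 to 0.125. ES against RS was not past the threshold (-0.24, adjusted p = 0.468), but in FPKM with a pseudocount of 0.1 Rec114 was lower in ES (-0.69, adjusted p = 0.0156, limma).

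Mei4, the partner of Rec114 in yeast and mouse, gave 11, 3 and 1 counts in PAC, 3, 2 and 7 in RS, and 3, 6 and 0 in ES. No cell type stood apart. Summed over libraries it was at 0.172 CPM in PAC (exact 95% Poisson interval 0.0962 to 0.284), 0.115 in RS (0.0596 to 0.201) and 0.145 in ES (0.0662 to 0.275), near the level of 3 counts in a library (0.0819 to 0.162 CPM), which is also the limit that the 0 counts of ES replicate 3 allow (0.142). Without the filter, RS against PAC had an adjusted p of 0.753. No difference could be detected at this depth.

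Mei1 did not pass the test in any comparison. It had 5.41, 6.87 and 6.23 CPM in PAC, 5.24, 5.54 and 4.70 in RS, and 4.43, 5.82 and 5.30 in ES, and the cell types overlapped. The log2 fold change was -0.26 for RS against PAC (95% interval -0.67 to 0.16, adjusted p = 0.235), 0.01 for ES against RS (-0.41 to 0.43) and -0.25 for ES against PAC (-0.67 to 0.17). These intervals leave out the falls measured for Spo11, Zcwpw1 and Iho1 between PAC and RS.

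**Figure D3:**
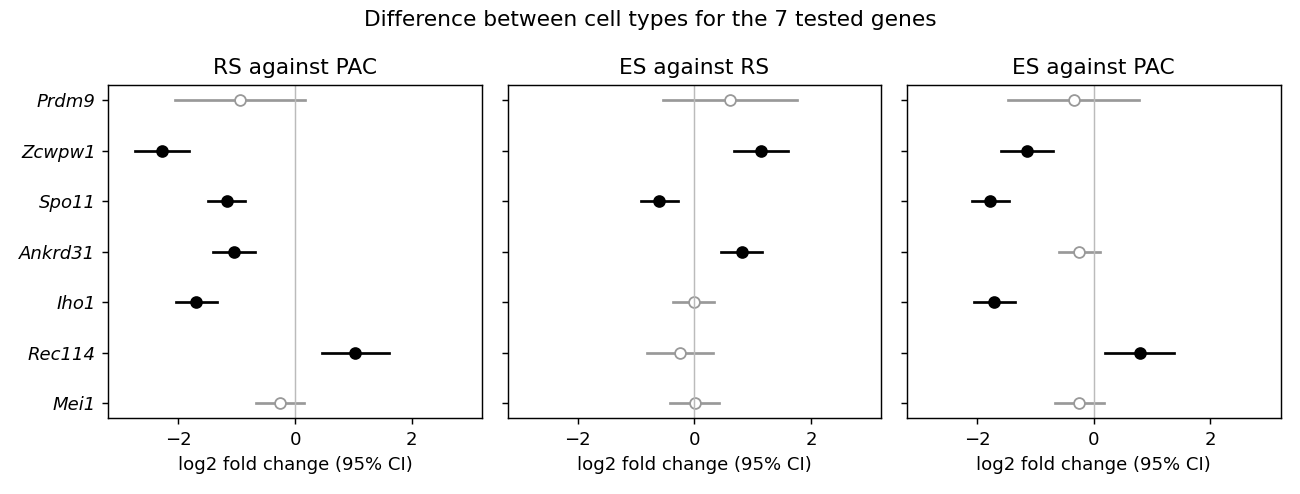
Log2 fold change with its 95% interval for the 7 tested genes in each of the 3 comparisons; filled black points passed an adjusted p of 0.05 and open grey points did not. In RS against PAC, 4 genes lie left of 0 and Rec114 lies right of it, and in ES against RS, Spo11 lies left and Zcwpw1 and Ankrd31 lie right.

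Because proteins of break formation act in complexes, ratios of FPKM between partners were taken within each library, where library scaling cancels. The ratio of Iho1 to Rec114 was 7.30, 5.63 and 6.01 in PAC, 0.746, 0.714 and 0.873 in RS, and 0.585, 1.23 and 1.40 in ES. All PAC libraries were above all others. The ratio of Ankrd31 to Rec114, whose products bind each other, was 8.66 ± 1.60 (SD, n = 3) in PAC, 1.98 ± 0.0955 in RS and 4.15 ± 1.29 in ES, with 3 separate ranges. The ratio of Spo11 to Ankrd31 overlapped between PAC (6.52 ± 2.37) and RS (4.93 ± 0.198) and was lower in each ES library (2.07 ± 0.0810). The ratio of Zcwpw1 to Prdm9 was 27.6 ± 13.9, 12.4 ± 8.64 and 11.8 ± 2.39, with ranges that overlapped and rest on few Prdm9 counts. Of the 6 ratios taken, those of Spo11 to Rec114 (54.4 ± 13.6, 9.75 ± 0.520 and 8.66 ± 2.93) and to Mei1 (60.3 ± 16.2, 29.0 ± 2.21 and 20.5 ± 1.41) were highest in each PAC library. These ratios are given without a test, since 3 libraries against 3 cannot go below an exact two-sided permutation p of 0.1.

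**Figure D4:**
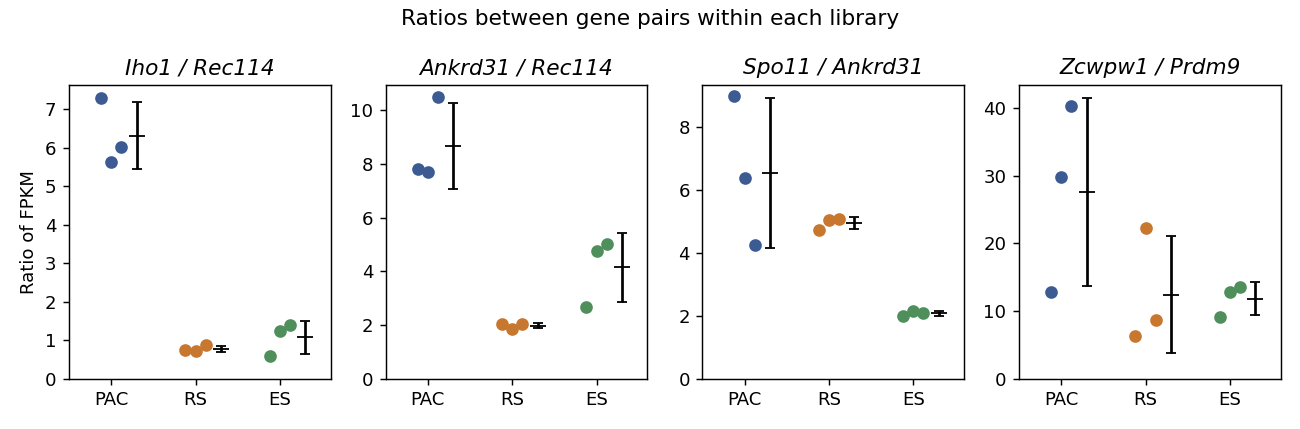
Ratio of the authors' FPKM between 4 pairs of genes in each library, with the mean ± SD of 3 libraries; each panel has its own axis from 0. Both ratios to Rec114 are highest in PAC, and the ratio of Spo11 to Ankrd31 is lowest in ES.

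Several neighbours overlap the 8 genes on the opposite strand, and no source used here says whether the authors' counting used strand. The first bases of Zcwpw1 overlap Mepce in GENCODE M21, which was at 174 ± 28.2 CPM in PAC, 124 ± 4.91 in RS and 100.2 ± 4.23 in ES. Mepce had a mean FPKM of 96.0, 76.2 and 55.6, above that of Zcwpw1. Like Zcwpw1, Mepce was highest in PAC, but it did not share the rise of Zcwpw1 in ES. The end of Zcwpw1 overlaps Pilra, at 0.347 ± 0.0603, 1.18 ± 0.145 and 0.432 ± 0.323 CPM, which was highest in RS. The end of Rec114 meets Nptn, at 20.5 ± 1.92, 57.7 ± 2.35 and 33.0 ± 1.52 CPM, which like Rec114 was lowest in PAC and highest in RS. The end of Iho1 overlaps 1700102P08Rik, at 299 ± 66.0, 32.3 ± 2.12 and 65.8 ± 6.19 CPM, which like Iho1 was highest in PAC. The part of these neighbours in the counts of Zcwpw1, Rec114 and Iho1 was not tested. Ankrd31 was the only member of the 8 with estimated counts that are not whole.

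Of 15 partner genes of break formation, 12 were lower in RS and 2 higher, beside 34.2% and 38.2% of all features, with a median log2 fold change of -0.98 against 0.11. Exo1, the nuclease gene that resects break ends, dropped to 2.62 ± 0.507 CPM in RS from a mean of 17.6 ± 0.549 (SD, n = 3; log2 fold change -2.74, adjusted p = 1.62e-06). Hormad1, which encodes the axis protein that IHO1 binds, fell from 302 ± 49.6 to 60.1 ± 3.002 (log2 fold change -2.33, adjusted p = 6.63e-07). Trip13, the gene of the ATPase that removes HORMAD proteins, fell from 6.24 ± 0.722 to 3.27 ± 0.269 (adjusted p = 0.00212). Cdyl, a chromodomain protein gene, rose from 92.6 ± 15.3 to 391 ± 29.4 (log2 fold change 2.08, adjusted p = 1.06e-05). Ehmt2, a histone H3 methyltransferase gene, was higher in RS by 0.28 on the log2 scale (adjusted p = 0.0416). The call of Ehmt2 was lost under 10 of 20 alternatives, with an adjusted p from 0.00143 to 0.12: among them were leaving out ES replicate 2 (0.28), PAC replicate 2 (0.27) or 3 (0.25), and RS replicate 1 (0.30), 2 (0.30) or 3 (0.27), which left 1 partner gene called higher.

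In ES against RS, 7 of the 15 partner genes rose and 3 fell, beside 24.5% and 22.1% of all features; their median was 0.38 against 0.05 over all features. Exo1 reached 5.70 ± 1.46 CPM, a log2 fold change of 1.12 (adjusted p = 0.00175), and Hormad2 rose from 4.34 ± 0.175 to 8.19 ± 1.49 (log2 fold change 0.92, adjusted p = 0.0035). Ewsr1 and Cxxc1, both genes of proteins that bind PRDM9, fell from 134 ± 10.8 to 72.7 ± 4.65 (log2 fold change -0.88, adjusted p = 0.000171) and from 47.8 ± 2.94 to 26.3 ± 2.11 (log2 fold change -0.86, adjusted p = 0.000411). Hormad1 was at 80.6 ± 13.5 CPM in ES (log2 fold change 0.43, adjusted p = 0.0474), a call lost under 13 of 20 alternatives. Without RS replicate 2 or RS replicate 3, 4 partner genes were called higher. With total counts alone 3 were, and in FPKM 0 were, where 3 still fell. In ES against PAC, 12 of 15 were lower and 2 higher, beside 33.7% and 30.6% of all features: Hormad1 (log2 fold change -1.90, adjusted p = 2.46e-06) and Exo1 (-1.62) had the largest falls, and Cdyl (2.64) and Ehmt2 (0.67) rose.

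The genes of strand exchange act in the step after break formation. In RS against PAC 8 of 12 fell and 1 rose, beside 34.2% and 38.2% of all features, with a median of -1.01. Spata22, whose product binds single-stranded DNA with MEIOB, dropped to 1.82 ± 0.256 CPM against 41.8 ± 4.996 (SD, n = 3; log2 fold change -4.52, adjusted p = 1.82e-08), and Fignl1 from 134 ± 10.02 to 15.1 ± 1.51 (log2 fold change -3.15, adjusted p = 1.01e-07). Dmc1, the meiotic recombinase gene, was low at 1.78 ± 0.576 and 1.99 ± 0.389 (adjusted p = 0.633). Swsap1 rose from 6.99 ± 1.51 to 11.3 ± 0.966 (adjusted p = 0.014), a call lost without RS replicate 3 (0.64, adjusted p = 0.0515), when 0 of 12 were higher.

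From RS to ES, 3 of the 12 strand exchange genes fell, a share near the 22.1% of all features, and 6 rose, beside 24.5%. Their median was 0.86. Spata22 reached 9.20 ± 1.02 CPM, a log2 fold change of 2.34 (adjusted p = 4.5e-06), while Dmc1 rose to 4.26 ± 1.005 (log2 fold change 1.09, adjusted p = 0.00993), a call lost in FPKM (0.59 with a pseudocount of 0.1, adjusted p = 0.127, limma). In FPKM 3 of the 12 rose with a pseudocount of 0.1 or 1, and 2 with no filter. Swsap1 (log2 fold change -1.67, adjusted p = 0.000146) and Brme1 (-0.97, adjusted p = 0.00028) fell. In ES against PAC 9 of 12 were lower, beside 33.7% of all features, among them Spata22 (-2.18) and Fignl1 (-2.07), and 1, Dmc1, was higher, beside 30.6% (1.26, adjusted p = 0.00303).

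Markers of other cells moved between the same libraries. From RS to ES, where Zcwpw1 and Ankrd31 rose, 11 of 11 tested Sertoli cell genes and 10 of 10 Leydig cell genes rose. Of all features 24.5% rose there and 22.1% fell. The summed level of 12 Sertoli genes was 53.8 to 59.9 CPM in RS and 424 to 503 in ES. Most of that sum in RS was Amhr2, at 47.7 ± 2.61 CPM, against 40.0 ± 19.1 in PAC and 186 ± 37.3 in ES. The 10 Leydig genes summed to 2.48 to 2.65 CPM in RS and 29.8 to 36.9 in ES. Of 9 tested macrophage and blood genes 6 were higher in ES. The 10 on that list summed to 17.6 to 19.7 CPM in RS and 155 to 234 in ES. Most of the sum in ES was Hbb-bs (85.3 ± 19.4 CPM), Hba-a1 (48.9 ± 11.0) and Alas2 (20.3 ± 0.352), genes of red blood cells. C1qa, C1qb and C1qc rose too, while Adgre1, Csf1r and Ptprc did not pass the test. The 10 peritubular and vascular genes, 2 of 8 higher and 1 lower, summed to 16.0 to 25.9 CPM in RS and 22.9 to 26.8 in ES. From PAC to RS, where 4 members fell, 10 of 11 Sertoli genes and 10 of 10 Leydig genes fell (61.9 to 146 and 110 to 146 CPM in PAC). In that comparison 6 of 9 macrophage and blood genes rose and 1 fell, and 4 of 8 peritubular and vascular genes rose and 1 fell. Of all features 38.2% rose there and 34.2% fell. In ES against PAC, 3 members were lower and 1 higher. There 11 of 11 Sertoli genes and 8 of 9 macrophage and blood genes were higher. Of 10 Leydig genes 9 were lower and 1 higher, and of 8 peritubular and vascular genes 3 were higher and 1 lower. Of all features 30.6% were higher in ES than in PAC and 33.7% lower. The macrophage and blood genes summed to 6.06 to 10.3 CPM in PAC. Fshr, of Sertoli cells, and Lhcgr, of Leydig cells, had no counts in RS. Their part in the results was not tested.

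Genes of spermatogonia and of meiotic entry were present too. The 12 spermatogonial genes summed to 96.0 to 126 CPM in PAC, 40.9 to 44.3 in RS and 49.9 to 61.3 in ES. Id4 made up most of that sum in PAC, at 86.7 ± 13.4 CPM, and was at 6.99 ± 0.734 in RS. Gfra1 went the other way, from 10.2 ± 0.586 in PAC to 24.8 ± 1.15 in RS. Of the 12, 5 were lower and 2 higher in RS than in PAC, beside 34.2% and 38.2% of all features. In ES against RS 6 were higher and 1 lower, beside 24.5% and 22.1%. The 12 genes of the meiotic entry list summed to 2527 to 2789 CPM in PAC, 1591 to 1661 in RS and 1781 to 1853 in ES. Most of them encode parts of the synaptonemal complex or cohesin, so the list is not specific to cells before pachytene. Syce2 weighs heavily in the sum of ES: it rose from 137 ± 7.02 CPM in RS to 483 ± 49.9 in ES, against 48.2 ± 6.16 in PAC. Of the 12 genes on this list, 6 were lower and 3 higher in RS than in PAC, beside 34.2% and 38.2% of all features. In ES against RS 3 were higher and 1 lower, beside 24.5% and 22.1%, and 8 did not pass the test. Stra8 itself, the entry factor expressed before breaks are made, was at 0.514 ± 0.276 CPM in PAC, 0.117 ± 0.0821 in RS and 0.799 ± 0.453 in ES. Stra8 was thus, like Prdm9, below 1 CPM on average in each cell type. It was lower in RS than in PAC (adjusted p = 0.0194) and higher in ES than in RS (adjusted p = 0.00813). Its level in RS was near that of 3 counts in a library (0.0819 to 0.0904 CPM), so both calls rest on few counts. The part of the genes of these lists in the members' levels was not tested.

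Each member's nearest protein-coding genes were found by the root-mean-square difference of log2 CPM, centred on each gene's mean, over the 9 libraries, among up to 12761 genes of at least 1 CPM. For Spo11 they were Rpn1 (0.0692), Ttc21b (0.0771) and Yipf2 (0.0801), and for Iho1 Psip1 (0.0728), Faah (0.0753) and Ermp1 (0.0804). For Rec114 they were Pex3 (0.0861), Rpf2 (0.0886) and Lkaaear1 (0.0904), all higher in spermatids: Pex3, a peroxisome assembly gene, averaged 112 CPM in PAC, 247 in RS and 210 in ES. For Ankrd31 they were Usp6nl (0.0935), Rrbp1 (0.102) and Nol10 (0.118), and for Zcwpw1 Dennd6a (0.147), Sema5b (0.153) and Sorl1 (0.159). Mei1 lay nearest to Senp5 (0.107), Aopep (0.113) and Cabin1 (0.114). Prdm9, whose profile is noisy at its counts, lay nearest to Romo1 (0.267), Fcgrt (0.298) and Tmem134 (0.306). Among the 7 tested members the closest pair was Spo11 and Iho1 (0.287) and the farthest Zcwpw1 and Rec114 (1.35), so none of the members was another's nearest gene.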

How the data were processed

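The authors deposited estimated counts per feature, not normalised, and FPKM of the same 50493 features. Per the submitters' processing notes, HISAT2, StringTie and GRCm38.p6 were used; no source used here gives versions, the order of steps or the strand setting of counting. Of the deposited counts, 18.8% are not whole and were rounded. Symbols and coordinates came from a RefSeq table of GRCm38.p6, which matched 21726 gene rows.

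Features were kept by edgeR's filterByExpr (minimum count 10), which left 26030 and removed Mei4. With TMM scaling, a quasi-likelihood test (robust, two-sided) over all 9 libraries compared each pair of cell types, with Benjamini-Hochberg adjustment over all features and calls at an adjusted p below 0.05. The SE is the log2 fold change over the square root of F, and 95% intervals follow from it. Intervals and floors cover counting error only where said. The alternatives were other scalings, filters, DESeq2, limma on log2(FPKM + 0.1 or 1), a replicate block, the 2 cell types alone and leaving out each library. The tests were also run on simulated counts, where few features changed and as many rose as fell. That run cannot check the scaling of these data, where many features changed.

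The members and lists were chosen with earlier results of these data known. Named were all members, Top6bl, Hormad1, Trip13 and Dmc1, the 2 largest called falls and rises of each list, and the 3 nearest genes per member; 1 other gene that the rule names is not reported here. Zcwpw2, on the partner list, is not analysed here. Fits ran in R 4.3.3 with DESeq2 1.42.0, limma 3.58.1 and edgeR 4.0.16, and tables in Python 3.11.15 with pandas 2.3.3.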

Additional observations from a re-analysis of the deposited data

How the results depend on the processing

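Of 417 values of single members under alternative settings, 382 kept their direction and their side of the threshold, 9 were no longer past it, 5 newly passed it and 21 changed sign. Every one of the 21 had an adjusted p above 0.05 in both fits. All member calls of RS against PAC held under every alternative. Scaling moved the median of all features: by 0.31 with upper-quartile factors in RS against PAC and by 0.30 in ES against PAC, by 0.14 with DESeq2 size factors in ES against RS, and by -0.33 there and -0.28 in ES against PAC with total counts alone. In ES against RS, 52.6% of calls over all features were higher, but 34.4% with total counts alone, where 8191 were lower and 4292 higher, and 32.2% in FPKM with a pseudocount of 0.1. In ES against PAC 47.6% were higher, and 57.9% with upper-quartile factors.

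In ES against RS, FPKM gave 2 members lower and 1 higher (pseudocount 0.1, 1, or 0.1 with no filter), and Rec114 then passed the threshold at -0.69, -0.56 and -0.69; total counts alone gave 1 higher. There FPKM gave 8674, 8934 and 8393 features lower and 4114, 4364 and 3975 higher, 0 partner genes higher, and 3, 3 and 2 strand exchange genes higher. In the same comparison 3 partner genes were higher with total counts alone, and 4 to 7 without 1 library. In ES against PAC, 0 members were higher with no filter and with total counts alone, 0 to 1 without 1 library, and 2 strand exchange genes were higher with upper-quartile factors. In RS against PAC, 1 partner gene was higher with DESeq2 size factors, DESeq2's Wald test, no filter and the replicate block, and 1 to 2 without 1 library; 0 to 1 strand exchange genes were higher without 1 library.

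These values changed sign. Upper-quartile factors gave 0.0658 for Ankrd31 and 0.0546 for Mei1 in ES against PAC, and 0.0537 for Mei1 and 0.21 for Brme1 in RS against PAC. In ES against RS, Iho1 was at 0.12 with DESeq2 size factors, 0.13 with the Wald test and 0.0208 in a fit of those cell types alone. Mei1 was there at -0.41, -0.41 and -0.25 in FPKM (pseudocount 0.1, that with no filter, and 1), -0.0353 with no filter, -0.31 with total counts alone and -0.00012 with the replicate block. Top6bl was at -0.00557 in FPKM with a pseudocount of 1 and -0.13 with total counts alone, and Trip13 at -0.11, -0.11 and -0.0600 in FPKM and -0.0781 with total counts alone. Without 1 library at a time, values ran from -0.22 to 0.0390 for Brme1 and -0.0432 to 0.42 for Dmc1 in RS against PAC, from -0.14 to 0.12 for Iho1, -0.0843 to 0.11 for Mei1 and -0.0315 to 0.51 for Top6bl in ES against RS, and from -0.62 to 0.0791 for Prdm9 in ES against PAC. The cause of these changes was not tested.

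Replicate numbers were shared between cell types. Samples with the same number deviated together in 3 of 9 pairs (r above 0.1, range -0.0397 to 0.273). Among pairs with different numbers, r ran from -0.254 (PAC replicate 3 and ES replicate 1) to 0.0941 (RS replicate 2 and ES replicate 1). Whether the numbers pair the samples was not tested. With the replicate block 4 members were lower and 1 higher in RS against PAC, 1 and 2 in ES against RS, and 3 and 1 in ES against PAC, as without it. Low counts limit what can be said of Mei4, and of Prdm9 together with the spread between libraries.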
